A study of Homo sapiens with 6 samples.

Results

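The genes described here are 52 genes of the mitotic spindle, the kinetochore, the spindle checkpoint and cytokinesis. They were listed by name and matched by symbol to 52 of the 60675 Ensembl identifiers of a gene count table. Earlier results of these data were known when the genes were listed, so the choice was not blind to the data. All 52 passed the filter on low counts and were among the 16996 genes tested. The libraries came from PANC1, an established human pancreatic ductal cancer line grown in medium with fetal bovine serum. The RARG-KO group is 3 libraries of PANC1 cells in which RARG, the gene of retinoic acid receptor gamma, was targeted by Cas9 with a pair of guide RNAs flanking the part to be deleted, followed by puromycin selection and expansion of individual clones. The WT group is 3 libraries of unedited PANC1 cells labelled as untreated. How many clones gave the RARG-KO libraries is not stated, and a transfected and selected control clone was not analysed here, so the deletion, the selection and the history of a clone cannot be told apart. Per its title, the study asked whether RARG is needed for pancreatic cancer cells to proliferate.

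In mitosis, kinetochores built on centromeres attach sister chromatids to spindle microtubules. Kinetochores that are not attached keep the spindle checkpoint active, which holds back the anaphase-promoting complex, a ubiquitin ligase. Once all are attached, this ligase has securin and cyclin B degraded, separase opens cohesin, kinesins and the central spindle move the chromatids apart, and a contractile ring divides the cell. Most genes of this machinery are transcribed late in the cell cycle, under the MMB complex and FOXM1, and are repressed in G1 by the DREAM complex, which binds a short promoter element, the cell cycle genes homology region, with the core TTTGAA or TTCGAA.

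Promoter sequences of 43 of the 52 genes were found among the RefSeq promoters of GRCh38.p14, which reach from 250 bases before to 50 bases after each gene's start. None was found for UBE2C, BUB3, AURKA, BIRC5, FOXM1, TTK, KNL1, TPX2 and RACGAP1, so these genes are not in the counts below. TTTGAA, read on either strand, stood in the promoters of 32 of these 43 genes (74.4%), against 18.2% of all 27305 genes with a promoter. Within 60 bases before to 50 bases after the start it stood in 28 of the 43 (65.1%), against 6.26% of all genes. TTCGAA, which reads the same on both strands, was found in 3 (6.98%, against 1.82% of all genes). CCAAT on either strand, the core bound by NF-Y, stood in 34 (79.1%, against 39.7% of all genes). The element was present whichever way the gene moved: TTTGAA was found for 15 of 20 genes that rose in RARG-KO, 8 of 10 that fell and 9 of 13 that did not pass the test. To show the element in its place, the 80 bases before the start follow for genes of each kind, written towards the start, with both elements in capitals on either strand.

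ANLN: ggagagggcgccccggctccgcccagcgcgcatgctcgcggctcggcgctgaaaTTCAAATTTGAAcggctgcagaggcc
MKI67: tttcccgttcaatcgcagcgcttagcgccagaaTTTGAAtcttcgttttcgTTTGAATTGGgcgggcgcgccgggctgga
KIF11: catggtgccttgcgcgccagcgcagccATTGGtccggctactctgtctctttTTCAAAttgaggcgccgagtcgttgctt
PRC1: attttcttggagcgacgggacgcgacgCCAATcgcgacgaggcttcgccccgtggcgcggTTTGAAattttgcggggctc
KIF15: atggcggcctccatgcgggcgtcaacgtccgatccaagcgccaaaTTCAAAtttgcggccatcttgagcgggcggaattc
PLK1: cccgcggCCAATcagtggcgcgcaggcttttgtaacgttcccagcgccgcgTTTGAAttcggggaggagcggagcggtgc
CDC20: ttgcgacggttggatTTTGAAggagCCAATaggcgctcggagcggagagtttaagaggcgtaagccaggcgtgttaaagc
HMMR: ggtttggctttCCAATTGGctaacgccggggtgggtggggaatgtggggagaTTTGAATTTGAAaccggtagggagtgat

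The 80-base windows are chr7:36389782-36389861 (plus strand), chr10:128126424-128126503 (minus strand), chr10:92593050-92593129 (plus strand), chr15:90994536-90994615 (minus strand), chr3:44761714-44761793 (plus strand), chr16:23678809-23678888 (plus strand), chr1:43358901-43358980 (plus strand) and chr5:163460552-163460631 (plus strand). Among those of the 43 genes with such an element in this window, ANLN, MKI67 and KIF11 had the largest falls. PRC1, KIF15 and PLK1 had the largest rises among them, and HMMR and CDC20 the values nearest 0. In ANLN the element stands directly after its reverse complement, and in HMMR it is doubled. MKI67 has the element in 2 places, and the copy nearer to the start shares bases with the NF-Y core, read on the other strand. RefSeq starts can differ from the GENCODE gene ends given with the genes below, and a match of letters describes the sequence only.

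Library totals ranged from 30115051 to 31608089 counts in RARG-KO and from 29386408 to 30605114 in WT. Values are given as CPM, counts scaled to a common library size with TMM factors, and a fold change as log2 of RARG-KO over WT with its standard error (SE). RARG had 28.4, 24.1 and 28.5 CPM in RARG-KO, against 39.1, 40.5 and 41.6 CPM in WT (log2 -0.58 ± 0.07; edgeR adjusted p = 1.66e-07), so its transcript was reduced and not absent, and a gene-level count does not show the deleted part. Markers of the line were present, with KRT8 at 900.3 ± 33.7 CPM in RARG-KO and 1925 ± 27.7 CPM in WT and KRT18 at 345 ± 8.89 CPM in RARG-KO and 704 ± 14.6 CPM in WT, both lower in RARG-KO, and VIM at 1701 ± 13.0 CPM in RARG-KO and 1701 ± 16.7 CPM in WT (SD, n = 3). The list of 6 ductal epithelial markers summed to 2973 to 3060.0 CPM in RARG-KO and 4598 to 4654 CPM in WT. The leukocyte list of 5 genes summed to 0.195 to 0.668 CPM in RARG-KO and 0.933 to 0.997 CPM in WT, and the endothelial list of 4 genes summed to 5.24 to 5.87 CPM in RARG-KO and 1.45 to 2.07 CPM in WT, nearly all of it KDR. The fibroblast list of 6 genes summed to 207 to 221 CPM in RARG-KO and 103 to 108 CPM in WT, nearly all of it COL1A1, with DCN at 0 in every library. Mitochondrially encoded transcripts took 5.20% to 5.37% of the counts in RARG-KO and 3.87% to 3.999% in WT. The part of these differences in the results below was not tested, apart from library sizes without mitochondrial genes, with which 36 of the 52 genes were called as well.

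The mitotic genes as a group moved in both directions and by little. Of the 52 genes, 23 rose in RARG-KO, 13 fell and 16 did not pass the test, a share called of 69.2%, where the same test called 58.0% of all genes and 71.3% of the 7229 genes at least as abundant as the least abundant of the 52. By direction the background was 28.7% of all genes higher and 29.3% lower. Their median log2 fold change was 0.04, and that of all genes tested was 0.01. Changes of at least 1.5-fold were called in 4 of the 52 genes (7.69%, against 23.4% of all genes and 14.2% of those at least as abundant). PRC1 was the 1 gene higher, where 10.3% of all genes were, and UBE2C, KIF20B and ANLN were the 3 lower, where 13.2% of all genes were. Changes of at least 2-fold were called in 2 genes, UBE2C and KIF20B (3.85%, against 12.2%), both lower, where 4.88% of all genes were higher and 7.37% lower. Libraries of the groups did not overlap in 38 of the 52 genes (73.1%, against 62.6% of all genes). Together the 52 genes summed to 8831 to 9007 CPM in RARG-KO and 9040.0 to 9235 CPM in WT. Among the 16 genes that did not pass, the 95% intervals of the log2 fold change lay within -0.22 and 0.22, so changes of 1.5-fold or more lay outside them. In bulk RNA, a change in the share of cells in G2 and mitosis and a change in RNA per such cell cannot be told apart.

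**Figure D1:**
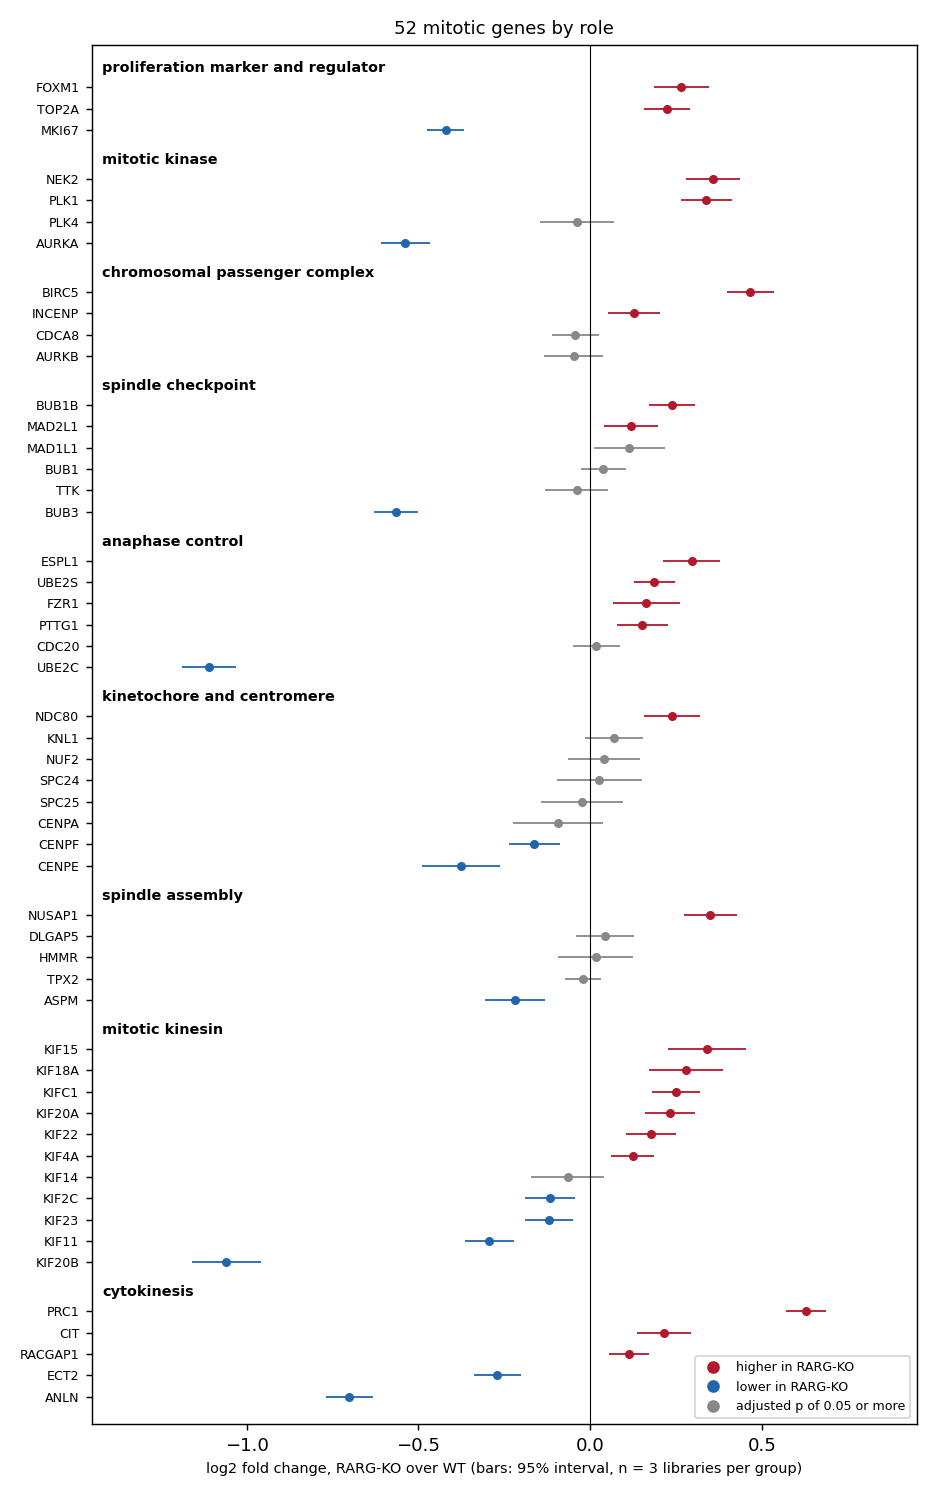
Log2 fold change of RARG-KO over WT for the 52 mitotic genes, grouped by role, with bars for the 95% interval (3 libraries per group). Most points lie within 0.5 of 0, and UBE2C at -1.11, KIF20B at -1.06 and ANLN at -0.70 lie farthest below, with PRC1 at 0.63 highest.

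The proliferation markers and regulators were divided. MKI67, the gene of the Ki-67 protein that coats mitotic chromosomes (ENSG00000148773, chromosome 10, 128096659 to 128126385, minus strand, GRCh38), had 528, 534 and 535 CPM in RARG-KO libraries 1, 2 and 3, against 721, 707 and 709 CPM in WT libraries 1, 2 and 3. The gap between the groups was many times the spread inside either (log2 -0.42 ± 0.03, SE; edgeR adjusted p = 2.37e-11). TOP2A, which encodes the topoisomerase that untangles chromatids, had 590.1, 624 and 572 CPM in RARG-KO, against 511, 492 and 527 CPM in WT, and every RARG-KO library was above every WT library (log2 0.22 ± 0.03, SE; edgeR adjusted p = 9.14e-06). FOXM1, the gene of a transcription factor of the G2 and mitotic program, averaged 113 ± 5.24 CPM in RARG-KO and 93.8 ± 2.38 CPM in WT (SD, n = 3; log2 0.27 ± 0.04, SE). ITFG2 on the other strand overlaps 15.9% of the exon length of FOXM1 and had 2391 reads over the 6 libraries against 18979 of FOXM1, so a share of the FOXM1 reads is uncertain. Both MKI67 and TOP2A are in use as proliferation markers, and they had opposite signs here.

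Among the mitotic kinases, PLK1 and NEK2 rose, AURKA fell and PLK4 did not pass. PLK1, a kinase of centrosome maturation, kinetochores and cytokinesis (ENSG00000166851, chromosome 16, 23677656 to 23690367, plus strand), had 193, 188 and 207 CPM in RARG-KO, against 157, 153 and 154 CPM in WT (log2 0.34 ± 0.04, SE; edgeR adjusted p = 1.11e-07). NEK2, a kinase that separates centrosomes, had 85.6, 84.3 and 83.1 CPM in RARG-KO, against 64.8, 66.1 and 66.5 CPM in WT (log2 0.36 ± 0.04). Both genes had groups that did not overlap. AURKA, the spindle pole kinase (ENSG00000087586, chromosome 20, 56369389 to 56392337, minus strand), had 138, 136 and 144 CPM in RARG-KO libraries 1, 2 and 3, against 198, 198 and 210.5 CPM in WT libraries 1, 2 and 3 (log2 -0.54 ± 0.04, SE; edgeR adjusted p = 5.39e-11), with each RARG-KO library far below each WT library. PLK4, the kinase that starts centriole duplication, averaged 42.4 ± 2.13 CPM in RARG-KO and 43.5 ± 1.27 CPM in WT (SD, n = 3), and its groups overlapped (95% interval of the log2 fold change -0.14 to 0.07).

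The chromosomal passenger complex senses faulty attachments and directs cytokinesis, with AURKB as its kinase, INCENP as its scaffold, and survivin (BIRC5) and borealin (CDCA8) as targeting subunits. BIRC5 (ENSG00000089685, chromosome 17, 78214186 to 78225636, plus strand) had 192, 204 and 201 CPM in RARG-KO libraries 1, 2 and 3, against 142, 143 and 146 CPM in WT libraries 1, 2 and 3. All RARG-KO libraries were above all WT libraries (log2 0.47 ± 0.03, SE; edgeR adjusted p = 2.22e-10), and this was the second highest rise of the 52 genes. INCENP rose by a log2 of 0.13 ± 0.04 (SE). AURKB and CDCA8 did not pass, at -0.05 ± 0.04 and -0.04 ± 0.03, with intervals of -0.13 to 0.04 and -0.11 to 0.02. Within the complex, the log2 ratio of BIRC5 to CDCA8 reads was 0.72 ± 0.06 in RARG-KO and 0.21 ± 0.04 in WT (SD, n = 3).

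Of 6 spindle checkpoint genes, BUB1B and MAD2L1 rose, BUB3 fell and 3 did not pass. The same test called 58.0% of all genes and 71.3% of those at least as abundant as the least abundant of the 52. TTK, the kinase that starts checkpoint signalling (-0.04 ± 0.05, log2 ± SE), BUB1 (0.04 ± 0.03) and MAD1L1 (0.11 ± 0.05) did not pass. BUB1B, the gene of BUBR1, a subunit of the inhibitor of the anaphase-promoting complex, had 154, 154 and 149.7 CPM in RARG-KO, against 128, 132 and 129 CPM in WT (log2 0.24 ± 0.03). MAD2L1, the gene of MAD2, which is turned into its inhibitory form at kinetochores, had a rise of 0.12 ± 0.04 (edgeR adjusted p = 0.0151), a call lost without WT replicate 1 (0.0631), without WT replicate 2 (0.07225) and with the replicate number as a block (0.0521). BUB3, which brings BUB1 and BUBR1 to kinetochores (ENSG00000154473, chromosome 10, 123154277 to 123170467, plus strand), had 190.4, 201 and 190.1 CPM in RARG-KO libraries 1, 2 and 3, against 292, 286 and 282 CPM in WT libraries 1, 2 and 3, so that no RARG-KO library came near the WT range (log2 -0.57 ± 0.03, SE; edgeR adjusted p = 4.75e-12). MAD1L1 passed as higher without RARG-KO replicate 2 (edgeR adjusted p = 0.0111), without WT replicate 2 (0.0493) and with upper-quartile factors (0.01905).

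Of the genes that control anaphase, 4 rose, 1 fell and 1 did not pass. Of all genes, 28.7% were higher and 29.3% lower. Of genes at least as abundant as the least abundant of the 52, 71.3% were called. UBE2C, the E2 enzyme that starts ubiquitin chains on substrates of the anaphase-promoting complex (ENSG00000175063, chromosome 20, 45812576 to 45816957, plus strand), had 66.6, 62.7 and 66.1 CPM in RARG-KO libraries 1, 2 and 3, against 141, 145 and 136 CPM in WT libraries 1, 2 and 3. Every RARG-KO library held less than 0.5 times the CPM of any WT library, and the fall was the deepest of the 52 genes (log2 -1.11 ± 0.04, SE; edgeR adjusted p = 1.99e-15). UBE2S, the E2 that lengthens those chains, moved the other way, with 560.0, 527 and 564 CPM in RARG-KO, against 485, 487 and 477 CPM in WT (log2 0.19 ± 0.03). Both activators of the ligase were near their WT level: CDC20, which acts before anaphase, was at 0.02 ± 0.03 and did not pass, and FZR1, the gene of CDH1, which acts in late mitosis and G1, rose by 0.16 ± 0.05 (log2 ± SE). MFSD12 on the other strand, with 17712 reads against 8241 and a log2 fold change of 0.71, shares 70 exon bases with FZR1, so part of the FZR1 reads is uncertain.

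Securin and separase, inhibitor and protease, both rose. PTTG1, the gene of securin, rose by 0.15 ± 0.04 (log2 ± SE). ESPL1, the gene of separase (ENSG00000135476, chromosome 12, 53268299 to 53293643, plus strand), had 113, 105 and 114 CPM in RARG-KO, against 91.9, 92.1 and 86.3 CPM in WT (log2 0.30 ± 0.04; edgeR adjusted p = 3.91e-06), with no overlap of the groups. ESPL1 starts 35318 bases beyond the end of RARG on the same chromosome, with 1 protein-coding gene between them, MFSD5, whose log2 fold change was 0.12 (edgeR adjusted p = 0.0451). The 40 protein-coding neighbours of ESPL1 had a median of -0.03.

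**Figure D2:**
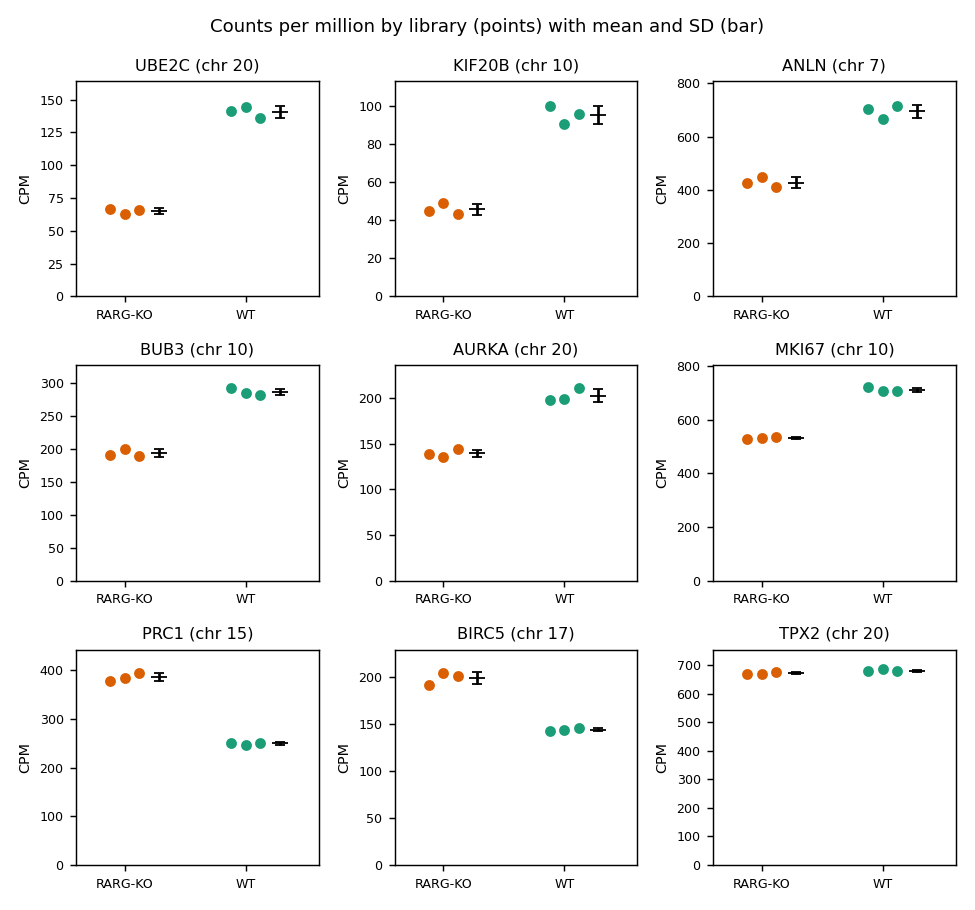
CPM of 9 mitotic genes in each library (points), with the mean and SD beside them, RARG-KO left of WT and axes from 0. UBE2C, KIF20B, ANLN, BUB3, AURKA and MKI67 lie lower in every RARG-KO library, PRC1 and BIRC5 higher, and TPX2 stays between 669 and 686 CPM in all 6.

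Of 8 kinetochore and centromere genes, 1 rose, 2 fell and 5 did not pass, where 58.0% of all genes passed. The 5 were CENPA, the centromeric histone gene (-0.09 ± 0.07, log2 ± SE), NUF2 (0.04 ± 0.05), SPC24 (0.03 ± 0.06), SPC25 (-0.02 ± 0.06) and KNL1 (0.07 ± 0.04), the platform for checkpoint proteins. The call of KNL1 changed to higher when RARG-KO replicate 3 was left out (edgeR adjusted p = 0.0494) or upper-quartile factors were used (0.0347). NDC80, which with NUF2, SPC24 and SPC25 forms the complex that grips microtubules, had 103, 112 and 107 CPM in RARG-KO, against 93.4, 86.7 and 92.2 CPM in WT and rose by 0.24 ± 0.04 (edgeR adjusted p = 4.89e-05). CENPE, a kinesin that carries chromosomes to the spindle equator, had 58.4, 63.0 and 53.9 CPM in RARG-KO, against 81.4, 70.1 and 76.0 CPM in WT, and all RARG-KO libraries were below all WT libraries (log2 -0.38 ± 0.06; edgeR adjusted p = 1.03e-05). CENPF, a large protein of the outer kinetochore, had 409, 439 and 391 CPM in RARG-KO, against 476, 441 and 469 CPM in WT with a smaller difference (-0.16 ± 0.04), and its groups did not overlap. SLC35F6 on the same strand shares 138 exon bases with CENPA and had 9055 reads against 5452, so part of the reads of CENPA is uncertain.

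Of 5 spindle assembly genes, 1 rose, 1 fell and 3 did not pass, where 58.0% of all genes passed. Of genes at least as abundant as the least abundant of the 52, 71.3% passed. NUSAP1, which bundles microtubules near chromosomes, had 147, 163 and 150.0 CPM in RARG-KO, against 120.4, 119 and 122 CPM in WT (log2 0.35 ± 0.04, SE; edgeR adjusted p = 1.64e-07). ASPM, which focuses spindle poles, had 133, 139 and 120.4 CPM in RARG-KO, against 156, 146 and 155 CPM in WT (log2 -0.22 ± 0.05), again with no overlap. TPX2, which activates AURKA and nucleates microtubules, had 669, 671 and 676 CPM in RARG-KO, against 679, 686 and 679 CPM in WT, a difference of -0.02 with an interval of -0.07 to 0.03 (edgeR adjusted p = 0.538). DLGAP5 (0.04 ± 0.04), a stabilizer of kinetochore fibres, and HMMR (0.02 ± 0.06), a spindle pole protein, did not pass. Per kilobase of merged exon length, TPX2 was the most abundant of the 52 transcripts in WT and UBE2S in RARG-KO, with TPX2 at 186 in RARG-KO and 189 in WT and UBE2S at 197 in RARG-KO and 173 in WT (CPM per kilobase). CENPE was the lowest in RARG-KO and CIT in WT, with CENPE at 6.19 in RARG-KO and 8.03 in WT and CIT at 6.70 in RARG-KO and 5.77 in WT.

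Of 11 mitotic kinesins other than CENPE, 6 rose, 4 fell and 1 did not pass, where 28.7% of all genes were higher and 29.3% lower. Of genes at least as abundant as the least abundant of the 52, 71.3% were called. KIF20B, a motor of the late midbody (ENSG00000138182, chromosome 10, 89701610 to 89774939, plus strand), had 44.8, 49.1 and 43.3 CPM in RARG-KO libraries 1, 2 and 3, against 99.8, 90.4 and 95.7 CPM in WT libraries 1, 2 and 3. The groups were again far apart (log2 -1.06 ± 0.05, SE; edgeR adjusted p = 2.38e-13). KIF11, the motor that pushes spindle poles apart, had 168, 176 and 161 CPM in RARG-KO, against 208, 201 and 209.8 CPM in WT (log2 -0.29 ± 0.04; edgeR adjusted p = 6.40e-07), lower in each RARG-KO library. KIF15, a motor that can share in that work, had 51.4, 56.8 and 48.7 CPM in RARG-KO, against 39.9, 41.3 and 42.8 CPM in WT and rose by 0.34 ± 0.06 (edgeR adjusted p = 3.90e-05).

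The other rises among the kinesins were of KIF18A, which limits chromosome oscillation (0.28 ± 0.06, log2 ± SE), KIFC1, a minus-end motor that clusters centrosomes (0.25 ± 0.04), KIF20A of the central spindle (0.23 ± 0.04), the chromokinesin KIF22 (0.18 ± 0.04) and KIF4A, which works with PRC1 (0.12 ± 0.03). BRD8 and CDC23 on the other strand share exon bases with KIF20A and had 18871 and 14635 reads against its 23201, so part of its reads is uncertain. The same holds for KIF4A, which shares 77 exon bases with PDZD11 (12530 reads against 31720), and for KIF18A, which shares 61 with METTL15 (4178 reads against 8069). The small falls of KIF2C, a microtubule depolymerase (-0.12 ± 0.04), and KIF23, the kinesin of centralspindlin (-0.12 ± 0.04), were lost with upper-quartile factors (edgeR adjusted p = 0.0834 and 0.0543). Without WT replicate 1 the call of KIF2C was also lost (0.0568), and without RARG-KO replicate 3 that of KIF23 (0.0507). KIF14, a midbody kinesin, was at -0.06 ± 0.05 and did not pass.

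All 5 cytokinesis genes passed the test, 3 higher and 2 lower, where 58.0% of all genes passed. Of genes at least as abundant as the least abundant of the 52, 71.3% passed. PRC1, which crosslinks the antiparallel microtubules of the central spindle (ENSG00000198901, chromosome 15, 90966038 to 90995629, minus strand), had 379, 383 and 395 CPM in RARG-KO libraries 1, 2 and 3, against 251, 247 and 251 CPM in WT libraries 1, 2 and 3 (log2 0.63 ± 0.03, SE; edgeR adjusted p = 2.18e-13). ANLN, the gene of anillin, which ties the contractile ring to the membrane (ENSG00000011426, chromosome 7, 36389806 to 36453791, plus strand), had 425, 448 and 409.5 CPM in RARG-KO libraries 1, 2 and 3, against 703, 667 and 715 CPM in WT libraries 1, 2 and 3 (log2 -0.70 ± 0.03, SE; edgeR adjusted p = 3.55e-13). All RARG-KO libraries were far above the WT libraries for PRC1 and far below them for ANLN. ECT2, the exchange factor that activates RhoA at the equator, had 285, 306 and 280.3 CPM in RARG-KO, against 357, 339 and 354 CPM in WT and fell (log2 -0.27 ± 0.03). RACGAP1, which recruits ECT2 as a subunit of centralspindlin, had 256, 256 and 258 CPM in RARG-KO, against 239, 237 and 237 CPM in WT, a small rise of 0.11 ± 0.03 with no overlap of the groups. CIT, the gene of citron kinase at the midbody, rose by 0.22 ± 0.04.

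Of the 13 falls, 6 were of genes on chromosomes 10 and 20. All 4 of the genes on chromosome 10, KIF20B, KIF11, BUB3 and MKI67, fell, and on that chromosome 71.4% of the 521 tested protein-coding genes were lower in RARG-KO, with a median log2 of -0.54. On chromosome 20 AURKA and UBE2C fell and TPX2 did not pass, beside 53.0% of 364 protein-coding genes lower and a median of -0.27.  Over the 45 genes on other chromosomes, 23 rose, 7 fell and 15 did not pass, with a median of 0.11. The 12400 tested protein-coding genes off chromosomes 10 and 20, with these 45 included, had a median of 0.02 and 63.9% called. Of all genes tested, on any chromosome, 28.7% were higher and 29.3% lower. This division by chromosome was made after the values were seen. Leaving out chromosomes whose mitotic genes fell makes the rest lean towards rises.

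For each gene the median log2 fold change of its protein-coding neighbours, 20 on each side where the chromosome allowed, was taken from the same test. The neighbours of KIF20B had a median of -0.67, with 34 of 40 lower, and those of KIF11 -0.66, with 35 of 40 lower. For BUB3 the median was -0.53, for MKI67 -0.56, for UBE2C -0.55 and for AURKA -0.45. KIF20B and KIF11 share 26 of their 40 neighbours and BUB3 and MKI67 share 21, so these medians are not independent. Set in the model as an offset, the neighbour median left UBE2C at -0.56 (edgeR adjusted p = 1.65e-10) and KIF20B at -0.38 (1.90e-06), still lower in RARG-KO. BUB3 at -0.04 (0.344) and AURKA at -0.08 (0.0572) no longer passed. MKI67 at 0.14 (0.000161) and KIF11 at 0.37 (3.34e-08) passed with the opposite sign. The offset was a fixed value, so these p-values leave out the spread of the neighbours. Among itself and its neighbours, KIF20B ranked 15 from the lowest of 41 and UBE2C 8 of 41. The neighbours of KIF20B had a median of -1.15 at lower coordinates, below KIF20B itself, and of -0.59 at higher coordinates. The part of the chromosome region in these changes was not tested further.

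**Figure D3:**
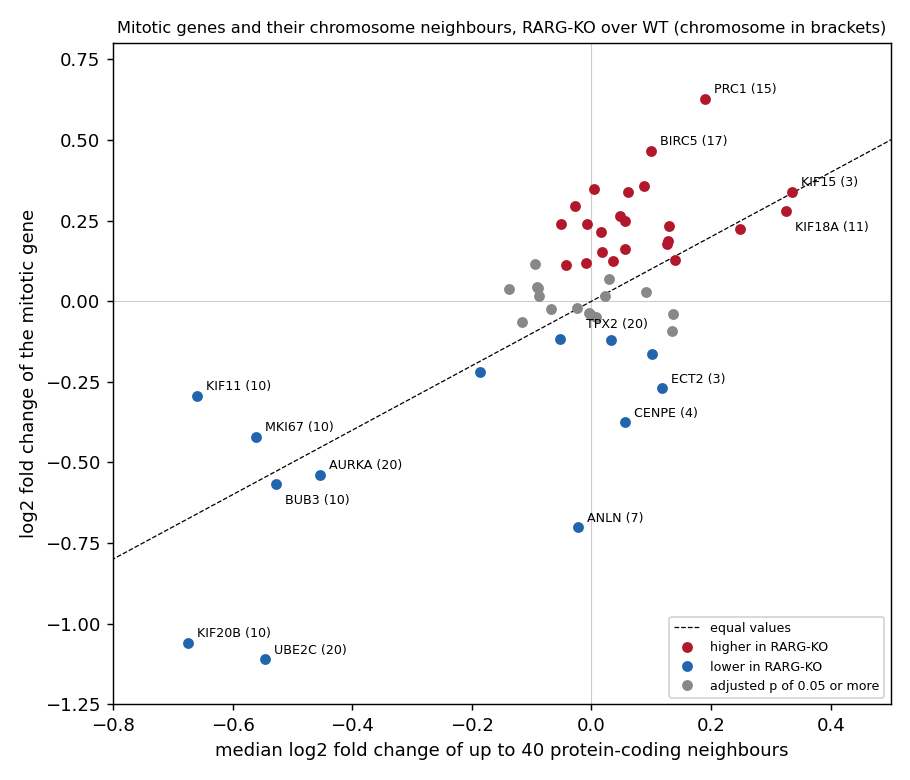
Log2 fold change of each of the 52 genes (vertical axis) against the median log2 fold change of up to 40 protein-coding neighbours (horizontal axis), RARG-KO over WT, with a dashed line of equal values. KIF20B, UBE2C, BUB3, AURKA, MKI67 and KIF11 of chromosomes 10 and 20 lie at the lower left, TPX2 of chromosome 20 lies at the origin, KIF15 and KIF18A lie at or near the line at the upper right, and ANLN, ECT2 and CENPE lie below neighbours whose medians are near or above 0.

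TPX2 lay where neighbours changed sign along chromosome 20. The 20 neighbours at lower coordinates had a median of 0.41 and the 20 at higher coordinates a median of -0.35. Mitotic and S phase genes of the other lists on this chromosome were higher in RARG-KO at lower coordinates than TPX2 and lower in RARG-KO at higher ones. CDC25B, PCNA and GINS1, which start at 3.8, 5.1 and 25.4 Mb, rose by 1.18 ± 0.03, 0.44 ± 0.03 and 0.37 ± 0.04 (log2 ± SE). DSN1, RBL1 and MYBL2, which start at 36.8, 37.0 and 43.7 Mb, fell, with values of -0.25 ± 0.05, -0.33 ± 0.06 and -0.57 ± 0.05. GINS1, DSN1 and RBL1 were chosen after their values were seen, as the remaining genes of the lists on this chromosome.

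Some of the rises also had neighbours with higher values in RARG-KO. The neighbours of KIF15 on chromosome 3 had a median of 0.34, with 31 of 40 higher. Those of KIF18A on chromosome 11 had a median of 0.33, with 29 of 40 higher. Those of TOP2A on chromosome 17 had a median of 0.25, with 18 of 40 higher and 11 lower. With the medians removed, KIF15 was at 0.0044, KIF18A at -0.05 and TOP2A at -0.02, and none of them passed. By contrast, ANLN had the lowest value among itself and its 40 neighbours, whose median was -0.02, and stayed at -0.68. PRC1, with neighbours at 0.19, was at 0.44, BIRC5 at 0.37, NUSAP1 at 0.34, ECT2 at -0.39 and CENPE at -0.43, each past the threshold. The neighbours of PRC1 and of TOP2A differed by side. Those of PRC1 had a median of 0.40 at lower coordinates and -0.20 at higher coordinates, and those of TOP2A 0.43 and -0.0016. Removing the median of either side alone was not tested. In all, 23 of the 36 called genes kept their call, 11 did not pass, 2 passed the other way, and 7 of the 16 others passed, among them TTK (-0.18), BUB1 (0.18) and CENPA (-0.23). This gave 32 called genes (61.5%, against 54.1% of all genes in that fit), 23 higher and 9 lower. Over the 52 genes the fold change and the neighbour median had Pearson's r of 0.73 and Spearman's rho of 0.53, and over the 45 genes off chromosomes 10 and 20 these were 0.36 and 0.34. These are descriptions across genes that share libraries and, in part, neighbours.

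Ratios between partner genes were taken within each library, where they do not depend on the scaling. Of 15 pairs of genes whose products act together, the groups did not overlap in 12. Of all single genes, 62.6% had groups that did not overlap in CPM. That share is not a background for ratios, and ratios of other pairs were not taken. With 3 libraries against 3, the smallest p an exact two-sided permutation test can give is 0.1, which all 12 reached, or 0.125 adjusted over the 15 pairs. UBE2C to UBE2S moved farthest, with log2 read ratios of -3.07, -3.07 and -3.09 in RARG-KO, against -1.78, -1.75 and -1.82 in WT, a difference of -1.30. AURKA to TPX2 had -2.27, -2.30 and -2.23 in RARG-KO, against -1.78, -1.79 and -1.69 in WT, a difference of -0.52. Both genes lie on chromosome 20, with neighbour medians of -0.45 for AURKA and -0.02 for TPX2. The part of the neighbours in the ratios was not tested. BIRC5 to CDCA8 was higher in RARG-KO by 0.51 and NDC80 to NUF2 by 0.20.

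The other pairs moved less than UBE2C to UBE2S. KIF4A to PRC1 and KIF20A to PRC1 were lower in RARG-KO, with log2 differences of -0.50 and -0.39. Both pairs share PRC1, whose own log2 fold change was 0.63. KIF14 to CIT was lower with a difference of -0.28 and KIF23 to RACGAP1, both subunits of centralspindlin, with one of -0.23. CENPE to CENPF (-0.21), BUB1 to BUB1B (-0.20), AURKB to INCENP (-0.18) and CDC20 to FZR1 (-0.15) were lower as well. The groups overlapped for PTTG1 to ESPL1 (-0.14, exact permutation p = 0.3), SPC24 to SPC25 (0.05, p = 0.4) and MAD2L1 to MAD1L1 (0.01, p = 1).

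**Figure D4:**
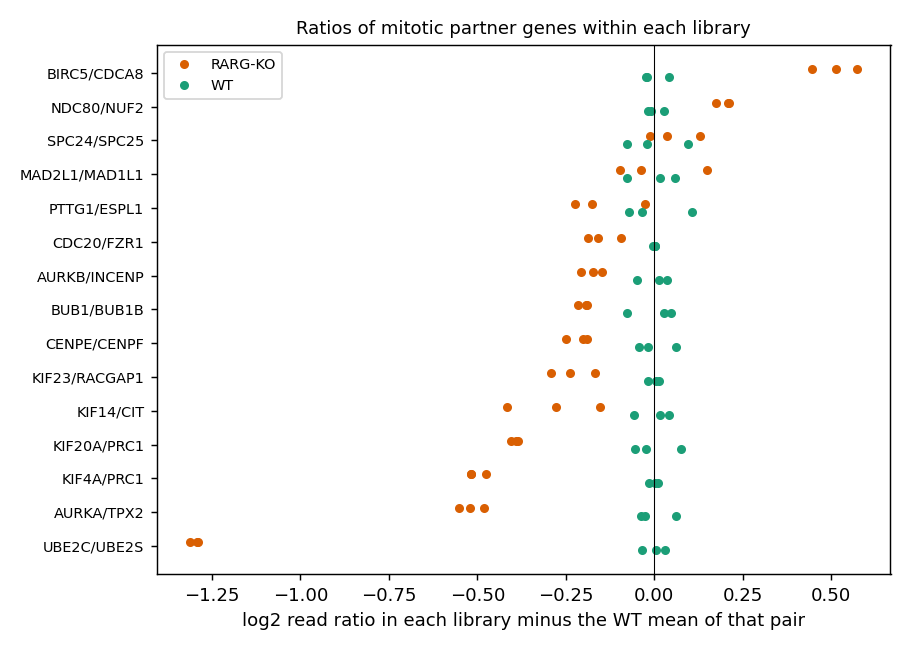
Log2 ratio of reads of 15 pairs of mitotic partner genes in each library, drawn as the difference from the WT mean of the pair (horizontal axis), with RARG-KO points above WT points in each row. UBE2C/UBE2S lies lowest at -1.30 and BIRC5/CDCA8 highest at 0.51, and SPC24/SPC25, MAD2L1/MAD1L1 and PTTG1/ESPL1 overlap.

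Other genes of mitosis and of S phase were read from 8 lists with 141 genes, all tested, of which 44 rose, 41 fell and 56 did not pass, where 28.7% of all genes were higher and 29.3% lower. Of 14 genes of the switch into mitosis, 5 rose and 3 fell, with a median log2 of 0.08. CDC25B, a phosphatase that activates CDK1, had 624, 597 and 627 CPM in RARG-KO, against 274, 272 and 270.3 CPM in WT (log2 1.18 ± 0.03, SE; edgeR adjusted p = 6.75e-18), the highest rise of the 141 genes, and was at 0.74 with the median of its neighbours removed. CCNA2, the gene of cyclin A2, rose by 0.27 ± 0.04. CDK1 on chromosome 10 fell (-0.52 ± 0.05) beside neighbours with a median of -0.69, and so did BORA, which helps AURKA activate PLK1 (-0.51 ± 0.07).

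Of 15 genes of the anaphase-promoting complex and its inhibitor FBXO5, 5 rose and 4 fell, with a median of 0.07. ANAPC11, the RING subunit, rose by 0.48 ± 0.05 and ANAPC13 by 0.23 ± 0.04, while ANAPC16 on chromosome 10 (-0.50 ± 0.04) and ANAPC1, a large scaffold subunit (-0.15 ± 0.03), fell (log2 ± SE). Among 29 further kinetochore genes 6 rose and 8 fell, with a median of 0.0031. SPDL1, which brings dynein to kinetochores (0.36 ± 0.03), and CENPW (0.52 ± 0.06) rose, and ZWINT (-0.38 ± 0.04) and MIS12 (-0.47 ± 0.06), a subunit of the bridge between centromere and outer kinetochore, fell. ZWINT lies on chromosome 10 with neighbours at -0.78, and MIS12 on chromosome 17 with neighbours at 0.07.

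Condensin, cohesin and shugoshin genes had 8 rises and 5 falls among 19, with a median of 0.06. The cohesin genes RAD21 (0.34 ± 0.03) and PDS5A (0.32 ± 0.03) rose, and WAPL, which releases cohesin (-0.75 ± 0.04), and SMC3, which encodes a cohesin ring subunit (-0.66 ± 0.04), fell (log2 ± SE). WAPL and SMC3 lie on chromosome 10 with neighbours at -0.69 and -0.68. Augmin, gamma-tubulin and spindle pole genes had 9 rises and 5 falls among 20, with a median of 0.11, such as CKAP5 (0.40 ± 0.03), a microtubule polymerase gene, NUMA1 (0.37 ± 0.04), TUBGCP2 of chromosome 10 (-0.56 ± 0.04) and HAUS6 (-0.36 ± 0.06). Of 10 centriole duplication genes 1 rose and 2 fell, with a median of -0.04: CEP63 was at 0.25 ± 0.05, CENPJ at -0.30 ± 0.06 and CEP135 at -0.36 ± 0.08.

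Genes of the DREAM and MMB complexes, which repress and activate mitotic promoters, had the lowest median of the 8 lists. Of these 12 genes, 7 fell and 2 rose, where 29.3% of all genes were lower and 28.7% higher. The median log2 was -0.33, beside 0.01 over all genes. MYBL1, a MYB family factor, had 99.6, 105 and 87.7 CPM in RARG-KO, against 191, 179 and 196 CPM in WT (log2 -0.95 ± 0.05, SE; edgeR adjusted p = 1.46e-12), and MYBL2, the gene of B-MYB, the activator in MMB, had 92.6, 85.0 and 97.2 CPM in RARG-KO, against 127, 150.2 and 130.3 CPM in WT (log2 -0.57 ± 0.05; edgeR adjusted p = 1.51e-08). RBL2, the gene of p130, the pocket protein of DREAM, rose by 0.47 ± 0.06 and TFDP1 by 0.20 ± 0.03. With neighbour medians removed, 2 genes of this list were higher and 3 lower, MYBL1 at -0.33, nearer to 0 but past the threshold, and MYBL2 not passing at 0.02 (0.832).

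S phase genes, read for comparison, had 8 rises and 7 falls among 22, with a median of 0.04. PCNA rose as given above and RRM1, a ribonucleotide reductase gene, by 0.37 ± 0.03, whereas CCNE1, the gene of cyclin E1 (-1.59 ± 0.06), and MCM4, a helicase subunit gene (-0.31 ± 0.03), fell (log2 ± SE). On chromosome 10, 6 of the 7 genes of these lists fell and none rose, MASTL being the other at 0.08 ± 0.06, and MASTL starts at 27.2 Mb, at lower coordinates than the other 6. Off chromosomes 10 and 20, 41 of the 128 list genes rose and 32 fell. Chromosome 8, which holds none of the 52 genes, is among these others, although 60.7% of its 443 tested protein-coding genes were lower, with a median log2 of -0.355. Of the 6 list genes there, 5 fell, MYBL1 and MCM4 among them, and RAD21 rose.

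Counting could affect some values. Exon overlap with a gene that had at least 10% of their reads was found for 7 of the 52 genes, over at most 15.9% of their exon length. ANLN shares 78 exon bases with MATCAP2 on the other strand, which fell too (log2 -0.62) and had 6935 reads against 102158. Copies recognized by name, such as KIF4B, PTTG2 and pseudogenes of UBE2C and UBE2S, had at most 2.04% of the reads of their gene.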

How the data were processed

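Counts of reads per Ensembl gene, whole numbers without normalization, were used as deposited by the authors for 6 libraries of PANC1 RNA. HISAT2 2.1.0, Bowtie2 2.2.3, featureCounts and DESeq2, with GRCh38 and hg38, are named per the submitters' processing notes. Their settings, the annotation release and the use of strand are not stated there. A line on chromatin in the labels' extraction text was set aside, since the stated molecule is total RNA. Libraries held 29386408 to 31608089 counts, so that 3 counts correspond to 0.0936 to 0.104 CPM, counting error only. Replicates differed by more than sampling noise (chi-square per degree of freedom 2.18 to 5.59) and were used as separate samples. Separate cultures are not stated, so the spread behind the p-values may be technical only.

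RARG-KO was tested against WT with edgeR 4.0.16 (glmQLFTest, TMM, filterByExpr, group as the only term) in R 4.3.3, adjusted over all 16996 genes by Benjamini-Hochberg at 0.05. SE is the absolute log2 fold change over the square root of F. The test was tried on simulated counts. Symbols and positions came from the gene name table and GENCODE 29 (GRCh38), promoters from RefSeq (GRCh38.p14). Alternatives were RLE and upper-quartile factors, DESeq2 1.42.0, no filter, library sizes without mitochondrial genes, each library left out, the replicate number as a block, and a neighbour offset. The genes named are RARG, the 52 genes, up to 2 rising and 2 falling genes of each list by adjusted p, and the markers. The genes and lists were chosen with earlier results of these data known. Results that need an item withheld for evaluation are not reported here.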

Additional observations from a re-analysis of the deposited data

How the results depend on the processing

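The count of called mitotic genes was 36 with RLE factors, upper-quartile factors, DESeq2, no filter and library sizes without mitochondrial genes, and 34 to 37 when a library was left out (22 to 24 higher, 12 to 13 lower). With at least 1.5-fold required, 4 genes remained called, 1 higher and 3 lower, and with at least 2-fold 2 remained, 0 higher and 2 lower. Under these alternatives no mitotic gene changed sign past the threshold, and calls changed for KIF23, KIF2C, KNL1, MAD1L1 and MAD2L1, as given above. Over these alternatives and the replicate block their adjusted p (edgeR or DESeq2) ranged over 0.000244 to 0.0543 for KIF23, 0.00532 to 0.0834 for KIF2C, 0.0347 to 0.629 for KNL1, 0.0111 to 0.217 for MAD1L1 and 0.002 to 0.0722 for MAD2L1. The neighbour offset turned the sign of INCENP (-0.012), KIF18A (-0.047) and TOP2A (-0.024), which then did not pass, and of KIF11 (0.37) and MKI67 (0.14), which did. It left 8 others short of the threshold: ASPM, AURKA, BUB3, FZR1, KIF15, KIF22, KIF2C and UBE2S. Among these, UBE2S was at 0.06 (edgeR adjusted p = 0.108) and ASPM at -0.03 (0.583). FZR1 was at 0.11 (0.0795), KIF22 at 0.05 (0.269) and KIF2C at -0.06 (0.158). The offset brought 7 past the threshold: BUB1, CDC20, CENPA, DLGAP5, MAD1L1, NUF2 and TTK. In the centriole duplication list 3 to 5 genes were called when a library was left out, 5 of them without RARG-KO replicate 2. Over all genes 9081 to 9958 were called when a library was left out.

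With the replicate number as a block, 35 mitotic genes (22 higher, 13 lower) and 9258 genes in all were called, and the call of MAD2L1 was lost. Deviations of libraries with the same number correlated at 0.0137, -0.0514 and -0.00744, so no pairing by number was seen in them. Whether libraries with the same number shared a culture or batch is not stated, and these correlations cannot settle it. The sign of values near 0 is uncertain: the largest SE among the 52 genes was 0.07, of CENPA.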
